A study of Rattus norvegicus with 2 samples.

Results

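*Penk* (ENSRNOG00000008943) and *Pvalb* (ENSRNOG00000006471), 2 of the 25399 genes counted, are described in cultured neonatal rat heart fibroblasts and other cells recovered with them. They were picked by symbol and selected on measured values of the same data, their levels by cluster and library, so these levels and the LPS to control ratios are a description and carry no test. The cells came from hearts of Sprague-Dawley rats 1 to 3 days old, males and females pooled, digested with trypsin and enriched on a Percoll gradient for intrinsic cardiac adrenergic (ICA) cells. The cells were then plated and cultured. One preparation received saline (control) and the other LPS, the endotoxin of Gram-negative bacteria, at 1 µg/mL, both for 2 h. After treatment the cells were detached with trypsin, and each preparation gave 1 single-cell library of the 10X Genomics 3′ kind. The labels call both samples ICA cells, but the authors named 7999 control and 8609 LPS cells fibroblasts, in clusters 0, 1 and 7.

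*Penk* encodes preproenkephalin, the precursor from which prohormone convertases cut Met- and Leu-enkephalin, opioid peptides that act on delta and mu receptors. It is best known from the brain and the adrenal medulla, and its mRNA is also abundant in the rat heart. *Pvalb* encodes parvalbumin, a cytosolic EF-hand protein that buffers calcium and is best known from fast-twitch muscle and from inhibitory interneurons.

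The control library held 11531 cells with a median of 12479 unique molecular identifiers (UMIs, each standing for 1 captured mRNA molecule) per cell, and the LPS library held 12689 cells with a median of 9432. No cluster was given for 2 control and 8 LPS cells, which held no UMI of either gene. The libraries shared 194 cell barcodes, 1.68% of the control and 1.53% of the LPS barcodes, and 76 of these lay in the same cluster in both. A level is the UMIs of a gene summed over the cells of a cluster, per 1000000 UMIs of that cluster (CPM), and it is given with an exact 95% interval. With 1 library per condition there are no replicates, so the intervals cover counting error only and any difference in handling is part of a difference between the libraries. All 10 fibroblast markers examined, among them the collagen genes *Col1a1* and *Col3a1* and the proteoglycan gene *Dcn*, were found in clusters 0, 1 and 7, with a summed level of 10471 to 12080 CPM in control and 9433 to 11787 CPM in LPS cells. In the macrophages of cluster 6 that sum was 4002 and 3039 CPM.

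Fibroblasts held most of the transcripts of both genes. Of 26184 *Penk* UMIs in the control library, 89.9% lay in clusters 0, 1 and 7, and of 24076 in the LPS library, 90.0% did. The same clusters held 91.8% of 19003 control and 92.1% of 22096 LPS *Pvalb* UMIs. For comparison, these clusters held 76.0% of the UMIs of all genes in the control and 74.8% in the LPS library. Cluster 0 alone, with 6600 control and 7030 LPS cells, accounted for 79.1% and 76.8% of the *Penk* UMIs and for 83.8% and 83.6% of the *Pvalb* UMIs. It held 59.3% and 57.8% of the UMIs of all genes.

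*Penk* stood at 229 CPM (226 to 232) in the control and 251 CPM (247 to 254) in the LPS cells of cluster 0. In cluster 1, the fibroblasts that carried the cell cycle genes (441 and 422 CPM summed over *Top2a*, *Mki67*, *Birc5* and *Ccnb1*, against 34.2 and 25.6 CPM in cluster 0), *Penk* was at 107 CPM (103 to 111) and 133 CPM (128 to 138). In cluster 7, the small group of 104 control and 144 LPS fibroblasts with the highest interferon-response genes among the fibroblasts (710.3 and 2472 CPM over *Mx1*, *Ifit3*, *Isg15* and *Ifit2*), it was at 188 CPM (167 to 212) and 326 CPM (298 to 356). Cluster 1 was thus lowest of the 3 fibroblast clusters in each library, while clusters 0 and 7 traded places.

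Outside the clusters named fibroblast, *Penk* had its highest pooled level in cluster 10, at 417 CPM (318 to 537) and 439 CPM (342 to 555), but 1 cell held 28 of the 60 control UMIs and 1 cell 40 of the 70 LPS UMIs. Without these cells, a subset taken after the data were seen, the level was 243 and 203 CPM. That cluster, which the authors left without a cell type, held only 16 control and 26 LPS cells, and the Schwann or neuronal genes *Sox10*, *S100b*, *Tubb3*, *Th* and *Dbh* summed to 501 and 370.1 CPM there against 54.4 and 15.3 CPM in cluster 0, with *Th* and *Dbh* at 0 in cluster 10 in both libraries. Cluster 9, also without a cell type, had 196 CPM (157 to 241) in 66 control and 333 CPM (268 to 407) in 58 LPS cells, and 131 and 207 CPM without the cell richest in *Penk* in each library. Its summed fibroblast markers, 17692 and 14672 CPM, were above those of cluster 0, and its cardiomyocyte markers were at 1173 and 1291 CPM against 139.6 and 121 CPM.

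In order of level, the control intervals of clusters 0 and 9 overlapped, as did those of clusters 9 and 7, whereas cluster 10 lay above all of them with its richest cell included. Cluster 1 and cluster 2 (97.5 and 87.1 CPM), the latter with the pericyte genes at 718 and 609.9 CPM, had overlapping *Penk* intervals in control but not in LPS cells. The remaining clusters were lower, at 40.5 to 63.3 CPM in control and 57.3 to 80.1 CPM in LPS cells, and their neighbouring intervals overlapped. In LPS cells the macrophages, at 80.1 CPM (69.3 to 92.0), also overlapped cluster 2 (80.9 to 93.7). Without the cell richest in *Penk* these macrophages were at 65.9 CPM.

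*Pvalb* was at 176 CPM (173 to 179) in the control and 250.5 CPM (247 to 254) in the LPS cells of cluster 0. Cluster 1 had 54.3 CPM (51.3 to 57.3) and 81.6 CPM (77.7 to 85.7). Cluster 7 had 150.0 CPM (131 to 171) and 153 CPM (134 to 174). Cluster 0 was the highest of the 3 fibroblast clusters for *Pvalb* in each library, and its interval overlapped neither of theirs.

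Among the other clusters, only 9 and, with LPS, 10 came near these levels. Cluster 9 was at 160.0 CPM (125 to 202) and 168 CPM (123 to 223), or 109 and 135 CPM without the cell richest in *Pvalb* in each library, and cluster 10 at 41.7 CPM (15.3 to 90.8), from 6 UMIs, and 176 CPM (117 to 254), from 28 UMIs, of which 1 cell held 19. In the remaining clusters *Pvalb* lay between 34.6 and 81.9 CPM in control and between 40.2 and 61.0 CPM in LPS cells, with the highest value in cluster 8, where the mesothelial genes were at 504 and 529 CPM. Of the 91 control UMIs of cluster 8, 43 came from 1 cell. The control level of cluster 1, 54.3 CPM, lay inside the range of these clusters, and its LPS level, 81.6 CPM, lay above theirs.

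**Figure D1:**
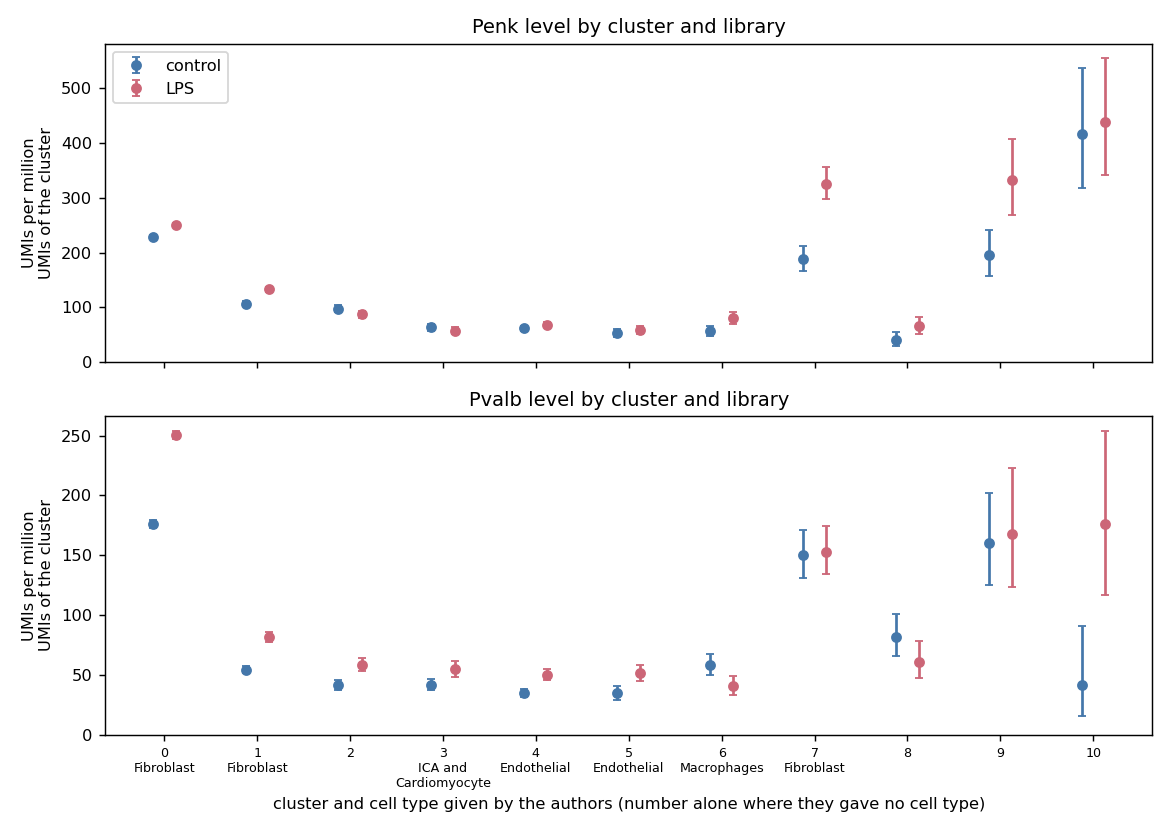
Level of *Penk* (top) and *Pvalb* (bottom) in each of the authors' clusters, in UMIs per 1000000 UMIs of the cluster (CPM), with control in blue and LPS in red; bars are exact 95% Poisson intervals, which cover counting error only. *Penk* was 229 and 251 CPM in cluster 0 and 107 and 133 CPM in cluster 1, and *Pvalb* was 176 and 250.5 CPM in cluster 0 and 54.3 and 81.6 CPM in cluster 1.

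Both genes were lower in cluster 1, relative to cluster 0, than every one of the 10 fibroblast markers. *Penk* in cluster 1 was 46.6% (44.7 to 48.6) of its level in cluster 0 in control and 52.9% (50.8 to 55.1) in LPS cells, and *Pvalb* was 30.8% (29.1 to 32.6) and 32.6% (31.0 to 34.3). The markers ranged from 61.5% (*Dcn*) to 105% (*Col1a1*) in the control library and from 65.8% to 103% with LPS. The authors built the clusters from the expressed genes, these included, so this contrast is a description and no test of a difference between fibroblast groups.

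Cell cycle genes could also be read cell by cell within a cluster. Among cluster 0 cells thinned to 3000 UMIs, the 368 control cells with a *Top2a* or *Mki67* UMI had on average 0.679 *Penk* UMIs against 0.680 in the 6232 others, and 0.546 *Pvalb* UMIs against 0.547. In LPS cells the means were 0.555 against 0.779 for *Penk*, a ratio of 0.712 (0.587 to 0.856), and 0.584 against 0.782 for *Pvalb*, a ratio of 0.747 (0.619 to 0.893), over 209 and 6815 cells. Within cluster 1 the ratios lay between 0.936 and 1.14 for both genes and libraries, and each interval included 1. There 588 control and 725 LPS cells had no such UMI after thinning, but only 55 and 152 had none at full depth. Most of these others thus lost the UMI by thinning, and the ratios cannot show whether the genes differ with cycling. In cluster 0, 5228 control and 6273 LPS cells had none at full depth, so part of the others there had one too. The intervals of these ratios cover counting error only. The variance of the thinned counts in LPS cells of cluster 0 was 5.62 times the mean for *Penk* and 3.97 times for *Pvalb*. A lower level in the LPS cells with such UMIs is thus not shown by these values.

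Relative to cluster 0, cluster 7 had 82.3% (72.8 to 92.7) of the *Penk* level in control and 129.8% (119 to 142) in LPS cells, while *Pvalb* was at 85.3% (74.3 to 97.5) and 61.2% (53.6 to 69.6). In the control cells both genes were below all 10 markers, which ran from 89.6% to 153%. In the LPS cells 9 of the 10 markers were below *Penk* and none was below *Pvalb*, with a marker range of 86.9% to 164%. With all cells the log2 LPS to control ratio in cluster 7 was 0.79 for *Penk* and 0.03 for *Pvalb*, and without cells holding a *Ptprc* (leukocyte) or *Tnnt2* (cardiomyocyte) UMI it was 0.23 and 0.09.

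In cells of other types, the levels lay mostly within the range of the fibroblast markers. In the macrophages *Penk* was at 24.7% of its cluster 0 level in control and 31.9% in LPS cells, and *Pvalb* was at 33.0% and 16.1%, where the fibroblast markers ran from 17.4% to 42.6% and from 19.7% to 35.8%. In the endothelial clusters 4 and 5 the values of both genes and libraries lay between 19.7% and 27.4%. *Pvalb* was below all 10 markers in the LPS macrophages and in the control cells of cluster 5, where the markers ran from 21.3% to 36.8%. *Penk* was above 9 of the 10 markers in the LPS cells of clusters 4 and 6. Free RNA in the droplets, doublets and low expression of these genes in the other cells cannot be told apart from these values. In cluster 10 *Penk* was at 182% (139 to 235) and 175% (136 to 221), above all 10 fibroblast markers, the highest of which were 84.3% and 95.6%. Without the cell richest in *Penk* in each library it was at 106% and 81.0%, so that in LPS cells it was no longer above them all.

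**Figure D2:**
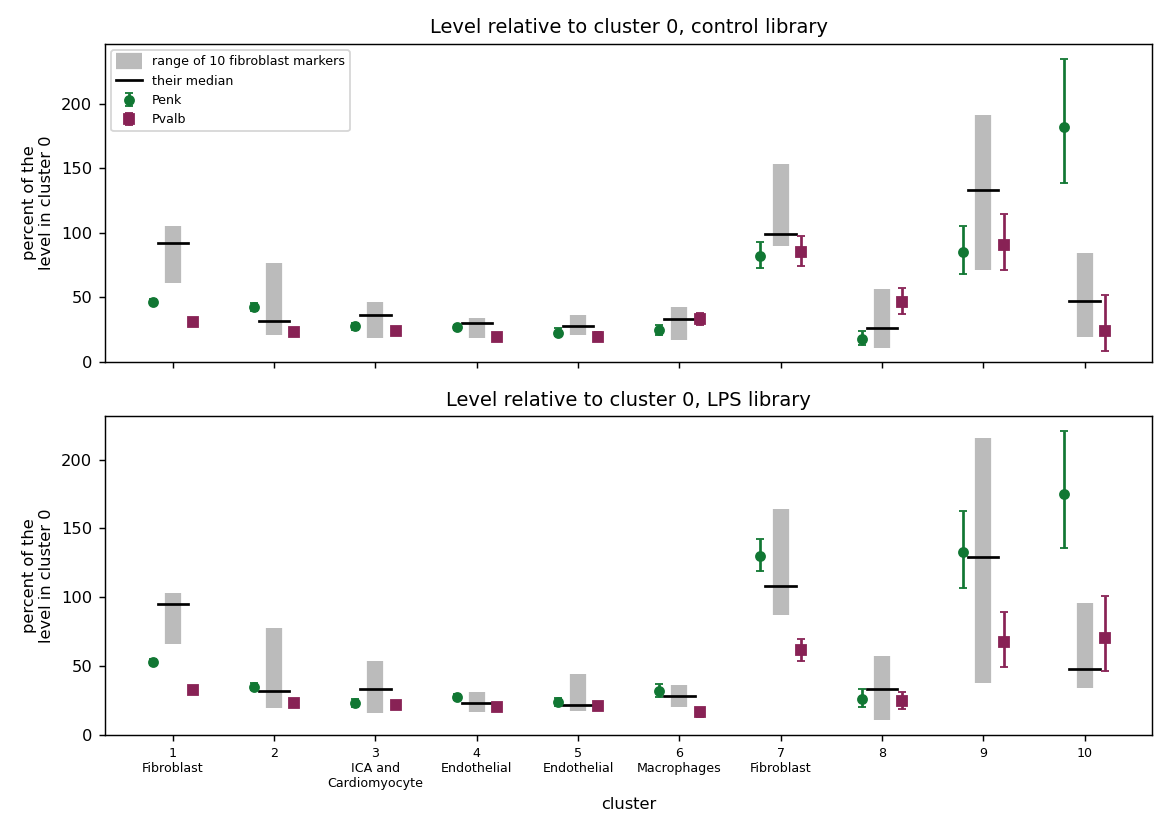
Level of *Penk* (green circles) and *Pvalb* (purple squares) in each cluster as a percent of the level in cluster 0, with exact 95% intervals for counting error, in the control (top) and LPS (bottom) library. Grey bars span the 10 fibroblast markers and the black lines are their medians; in cluster 1 both genes lie below the whole grey bar, and in cluster 10 *Penk* lies above it, where 1 cell held 28 of 60 control and 1 cell 40 of 70 LPS UMIs.

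The LPS library had more *Pvalb* and slightly more *Penk* relative to all UMIs in cluster 0. *Penk* had an LPS to control ratio of 1.10 (1.07 to 1.12) and *Pvalb* one of 1.42 (1.39 to 1.45), or 0.13 and 0.51 on the log2 scale. The median log2 ratio over the 12247 genes with at least 50 UMIs in cluster 0 was -0.13, so relative to it *Penk* was 0.26 and *Pvalb* 0.64 higher. Of these genes, 75.6% had a lower ratio than *Penk* and 91.9% a lower ratio than *Pvalb*. Neither gene was past 2-fold, a size that 3.43% of the genes passed upwards and 9.01% downwards.

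In cluster 1 the ratio was 1.24 (1.18 to 1.31) for *Penk*, and *Pvalb* was 0.59 higher with LPS on the log2 scale (0.48 to 0.70). In cluster 7 the ratios were 1.73 (1.49 to 2.01) and 1.02 (0.846 to 1.23). The *Penk* value of cluster 1 turned over in some subsets of cells. Without cells that held a *Ptprc* or *Tnnt2* UMI, which left 276 control and 491 LPS cells of cluster 1, its log2 ratio was -0.25 in place of 0.31, and without cells with a *Top2a* or *Mki67* UMI, which left 55 and 152 cells, it was -0.05. After thinning each cell to 3000 UMIs the *Penk* ratio in cluster 1 was 1.10 (0.967 to 1.25). The 0.23 for *Penk* in cluster 7 came from the 40 control and 61 LPS cells without *Ptprc* and *Tnnt2*. After thinning the *Penk* ratio in cluster 7 was 1.67 (1.22 to 2.31). The sign of the *Penk* value in cluster 1 thus depended on the choice of cells, with the -0.05 read from 79 control and 179 LPS UMIs. In cluster 7 the *Penk* value kept its sign in these subsets, but not its size, and the 0.23 was read from 107 control and 157 LPS UMIs. The *Pvalb* value in cluster 1 also kept its sign in these subsets. No intervals were computed for the subsets without cells holding marker UMIs, so a direction is not settled by them.

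Over the 11 clusters, the interval of the ratio of pooled levels lay above 1 in 7, included 1 in 3 and lay below 1 in 1, for each of the genes. After thinning, which gives each cell the same weight, it lay above 1 in 3 clusters for *Penk* (0, 7 and 9), included 1 in 8 and lay below 1 in 0. For *Pvalb* it then lay above 1 in 6, included 1 in 4 and lay below 1 in 1, cluster 8. All these intervals cover counting error only, while the variance of the thinned counts in cluster 0 was 3.57 to 5.62 times the mean. They are thus too narrow for the spread between cells, and the counts of clusters are a description. In cluster 8, 1 control cell held 66.7% of the thinned *Pvalb* UMIs. Without the richest cell of each library, the pooled ratio there was 1.19 (0.787 to 1.79). In LPS cells of cluster 10, 1 cell held 80.0% of the thinned *Pvalb* UMIs. In those of cluster 9, 1 cell held 39.0% of the thinned *Penk* UMIs. *Pvalb* was 0.39 to 0.59 higher with LPS on the log2 scale in clusters 0 to 5, with intervals above equal levels. After thinning the intervals of clusters 3 and 5 included 1. The part of free RNA and doublets in the ratios of clusters 2 to 5 was not tested. In clusters 7, 8 and 9 the pooled *Pvalb* ratios were 1.02, 0.745 and 1.05, with intervals that included 1. In the macrophages the pooled *Pvalb* ratio was 0.692 (0.537 to 0.889), from 181 control and 100 LPS UMIs, with 27 of the control UMIs in 1 cell. It was 0.749 (0.572 to 0.977) without the richest cell of each library and 0.943 (0.583 to 1.52) after thinning. *Penk* in the macrophages was 1.42 (1.15 to 1.75), with 37 of 199 LPS UMIs in 1 cell, and 1.09 (0.696 to 1.71) after thinning. In cluster 2 *Penk* was 0.894 (0.810 to 0.986), and 0.886 (0.754 to 1.04) after thinning. In cluster 10 the *Pvalb* ratio, 4.21 (1.71 to 12.4), was 1.88 (0.525 to 8.36) without the richest cells. With all clusters other than 0, 1 and 7 pooled, the ratio was 1.04 (0.987 to 1.10) for *Penk* and 1.27 (1.19 to 1.36) for *Pvalb*.

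**Figure D3:**
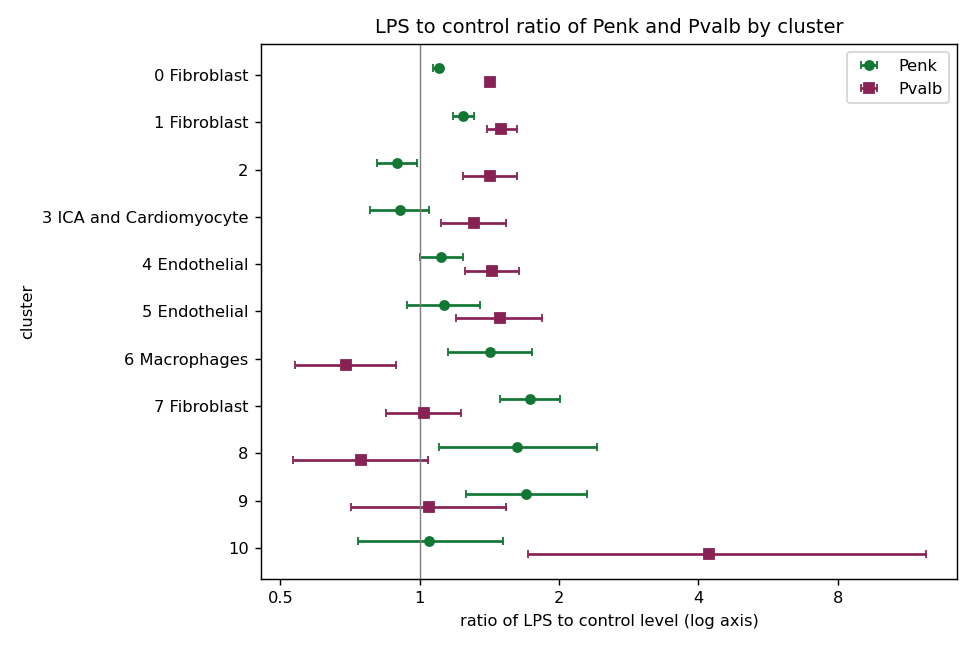
Ratio of the LPS to the control level of *Penk* (green circles) and *Pvalb* (purple squares) in each cluster, on a log axis, with exact conditional 95% intervals that cover counting error only; the grey line marks equal levels. *Pvalb* lies to the right of the line in clusters 0 to 5, at 1.42 in cluster 0, and at 0.692 in cluster 6, and *Penk* at 1.10 in cluster 0 and 1.73 in cluster 7.

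The share of cells with a transcript was compared after each cell had been thinned at random to 3000 UMIs, since the libraries differ in depth; 79 LPS cells with fewer UMIs were left out. In cluster 0 a *Penk* UMI was found in 29.6% (28.5 to 30.8) of control cells and in 30.5% (29.4 to 31.6) of LPS cells, a difference of 0.87 percentage points (-0.67 to 2.41). A *Pvalb* UMI was found in 26.0% (25.0 to 27.1) and 32.3% (31.2 to 33.4), a difference of 6.30 percentage points (4.78 to 7.82). Without thinning, at median depths of 12968 and 9822 UMIs, the shares were 63.6% and 54.6% for *Penk* and 54.1% and 55.4% for *Pvalb*. The macrophages, taken for comparison as cells of another lineage, had thinned shares of 11.7% and 11.4% for *Penk*, and a *Pvalb* UMI in 10.3% of control cells and 32 of 290 LPS cells, at median depths of 8846 and 6900 UMIs. Both genes were thus seen in a larger share of cluster 0 cells than of macrophages, and the interval of the difference between the libraries, for counting error only, lay above 0 for *Pvalb* and included 0 for *Penk*. Without thinning the differences were -8.98 percentage points (-10.62 to -7.33) for *Penk* and 1.33 (-0.34 to 3.00) for *Pvalb*.

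The transcripts were spread unevenly among the cells of cluster 0. If every thinned cell had the same *Penk* level, the share without a *Penk* UMI would be 50.7% in control and 46.2% in LPS cells; 70.4% and 69.5% held none. At the other end, 0.970% and 1.20% of the cells had 10 or more *Penk* UMIs, with a highest count of 36 in each library. The 10% of cells with the most *Penk* held 68.3% and 68.9% of its UMIs. For *Pvalb* 74.0% and 67.7% of the cells held none, against 57.9% and 46.0% if all cells were equal, 0.455% and 0.712% had 10 or more, and the top 10% of cells held 69.4% and 63.5%. *Dcn*, a proteoglycan gene of the same cells, is read at higher counts and had 26.9% and 25.9% of its UMIs in the top 10% of cells.

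A fairer comparison is with genes of similar level. Among the 355 genes with a mean of 0.5 to 1 thinned UMI per control cell of cluster 0, a range chosen after the values were seen, *Penk* had the highest ratio of variance to mean, 5.38, and *Pvalb* ranked 3 with 3.57, where the median gene had 1.04. Among 364 such genes in the LPS library *Penk* again ranked 1 with 5.62 and *Pvalb* ranked 4 with 3.97. The other genes at the top of both lists were *Cdkn1a*, an inhibitor of the cell cycle, *Mt1*, a metallothionein, and *Tagln*, a smooth muscle contractile gene. The cells with 5 or more *Penk* UMIs, 203 control and 290 LPS cells, were of similar depth to cells without *Penk* (medians of 12867 against 12981 and 9586 against 9786 UMIs). Their fibroblast markers summed to medians of 37.0 against 34.0 and 34.0 against 31.0 thinned UMIs. The 158 control and 284 LPS cells with 5 or more *Pvalb* UMIs were shallower than cells without *Pvalb*. Their median depths were 11778 against 13064 and 8917 against 9917 UMIs.

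**Figure D4:**
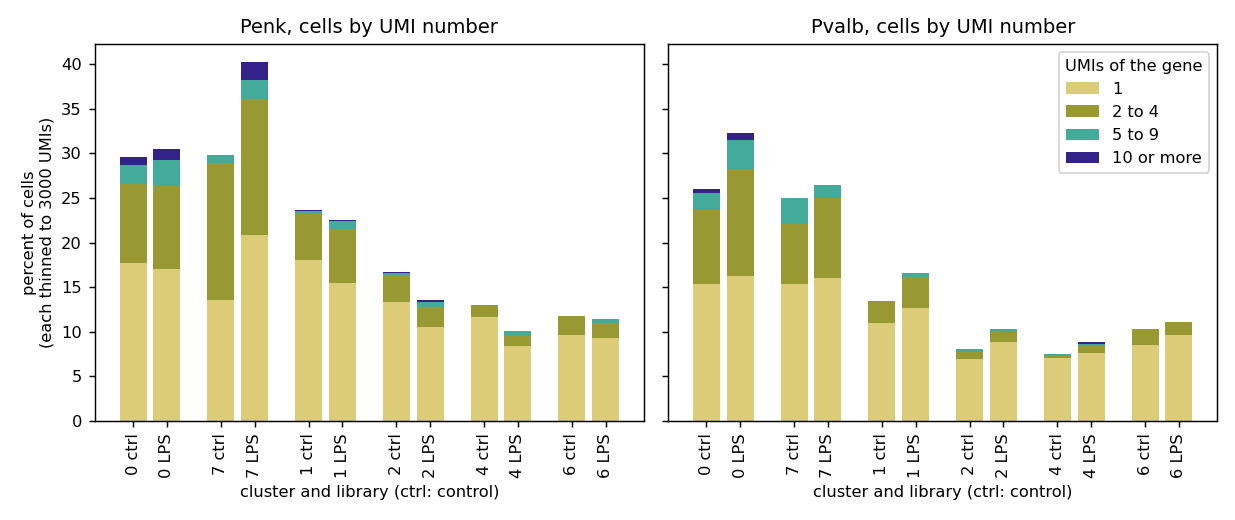
Percent of cells with 1, 2 to 4, 5 to 9 and 10 or more UMIs of *Penk* (left) and *Pvalb* (right) after thinning each cell to 3000 UMIs, stacked, for clusters 0, 7 and 1 (fibroblasts), 2 (no cell type), 4 (endothelial) and 6 (macrophages) in each library; the rest of the cells held none. In cluster 0, 29.6% and 30.5% of cells held *Penk* and 26.0% and 32.3% held *Pvalb*, and 64 control and 84 LPS cells of cluster 0 held 10 or more *Penk* UMIs.

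The cells rich in one gene overlapped in part with those rich in the other. Of 6600 control cells of cluster 0, 648 had a UMI of both genes, where 509 would if the genes were spread independently, and in the LPS library 836 of 7024 cells did, against 693. *Pvalb* was seen in 33.1% (31.0 to 35.3) of the control cells with *Penk* and in 23.0% (21.8 to 24.3) of those without, and in 39.0% (36.9 to 41.1) and 29.4% (28.1 to 30.7) of the LPS cells. Cells with 5 or more UMIs of both, a limit chosen after the values were seen, numbered 24 where 4.86 would be so by independence, and 45 where 11.7 would. The ratio of cells with both to the independent number was 1.27 in control and 1.21 in LPS cells, and it was 1.08 in each library without thinning. Thus the genes were found together more often than independently, but in both libraries most cells with 5 or more *Penk* UMIs had fewer than 5 of *Pvalb*. In cluster 1, 45 control and 74 LPS cells had both, against 41.4 and 53.3 by independence. In cluster 7, 9 control and 16 LPS cells had both, against 7.75 and 15.3.

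Genes that went with each member inside cluster 0 were sought by comparing thinned control cells with and without its UMI, and then read in the LPS cells, which had not been used for the choice. The cells with and without *Penk* had similar depths (medians of 12934 and 12981 UMIs in control, 9902 and 9786 in LPS), as did those with and without *Pvalb* (12644 and 13064, 9629 and 9917). Among genes with at least 50 thinned UMIs, the 10 with the largest difference were mostly of very low count and carried over poorly. For *Penk*, 2 of 10 were past 1.5-fold in the same direction in LPS cells, namely the pericyte gene *Rgs5* (3.39 in control, and 1.60 with an interval of 0.868 to 2.88 in LPS) and *Lbp*, which encodes LPS-binding protein (2.92 and 1.69). In the LPS cells, 2.12% of all genes tested were past 1.5-fold upwards and 1.28% downwards. The haemoglobin gene *Hbb*, 5.42-fold higher in control cells with *Penk*, was at 1.20 (0.670 to 2.08) in LPS cells, and *Fcrla* turned from -1.97 to 0.97 on the log2 scale. For *Pvalb*, 4 of 10 were past 1.5-fold in the same direction, *Pinlyp* (3.90 and 2.79) upwards and *Pms1* (0.247 and 0.449), *Epb41* and *Col11a1* downwards. The last pair had under 50 LPS UMIs and intervals that included 1. That pair was not among the genes tested in LPS cells, of which 2.12% were past 1.5-fold upwards and 1.70% downwards.

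Among the 3649 genes with at least 500 thinned control UMIs, a limit added after the first lists were seen, the companions carried over better. For *Penk*, all 10 genes with the largest difference in control had the same direction in LPS cells and 6 were past 1.5-fold upwards, where 0.411% of the genes tested were. *Pvalb* itself was 277 CPM in control cells with *Penk* and 142 CPM in those without, a ratio of 1.94 (1.82 to 2.08), and 1.84 (1.74 to 1.94) in LPS cells. *Igf1*, the insulin-like growth factor, had 1.80 (1.70 to 1.90) and 2.10 (1.92 to 2.31), and *Car3*, a carbonic anhydrase, had 1.79 and 2.73. The protease inhibitor gene *Serpine2* (1.49 and 1.55) and the cathepsin gene *Ctsc* (1.47 and 1.71) were also higher in cells with *Penk* in both libraries. *Sema3c*, a secreted guidance factor, was the only 1 of the 10 that was lower in cells with *Penk*, at 0.650 and 0.740.

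For *Pvalb*, all 10 such genes were higher in cells with it in both libraries and 7 were past 1.5-fold in LPS cells, where 0.521% of the genes were. *Penk* led with 2.07 in control and 1.88 (1.79 to 1.99) in LPS cells, which is the same overlap read from the other side. It was followed by *Rbp2*, a cellular retinol-binding protein gene (1.96 and 2.02), the cell cycle inhibitor *Cdkn2a* (1.85 and 1.68), *Ephx1*, a microsomal epoxide hydrolase (1.76 and 2.19), and the lipid carrier gene *Apoe*, which was 788 CPM in control cells with *Pvalb* and 461 CPM in those without (1.71 and 1.90). *Pla2g2a*, a secreted phospholipase A2, was 1.71 and 1.49. *Serpine2* was on the lists of both genes. When the genes were chosen in the LPS library instead, 3 of 10 for *Penk* and 4 of 10 for *Pvalb* were shared with these lists, among them *Igf1* and *Ctsc* for *Penk* and *Apoe*, *Rbp2* and *Serpine2* for *Pvalb*.

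**Figure D5:**
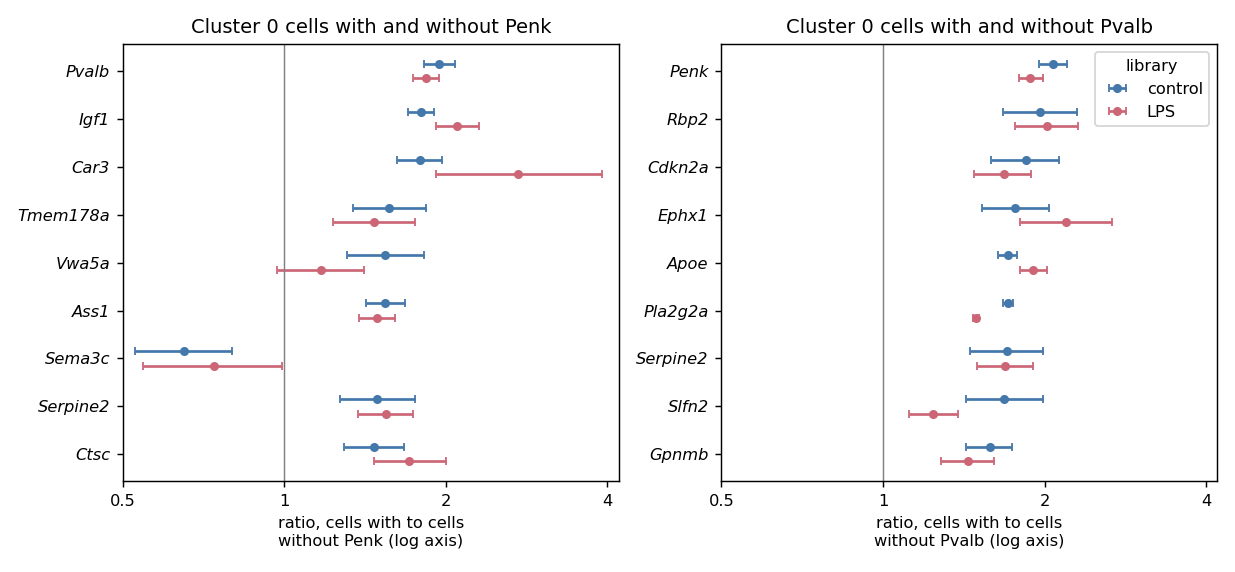
Ratio of the level of companion genes in cluster 0 cells with a UMI of *Penk* (left) or *Pvalb* (right) to that in cells without one, after thinning to 3000 UMIs, on a log axis, with exact conditional 95% intervals for counting error; the genes were chosen in control cells (blue) and read again in LPS cells (red). All ratios shown for LPS cells lie on the same side of 1 as in control cells, for example 1.80 and 2.10 for *Igf1* beside *Penk*.

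Summed endothelial, macrophage and cardiomyocyte markers in cells with *Penk*, relative to cells without, lay between 0.876 and 1.18, and for *Pvalb* between 0.847 and 1.10. The 0.876, for endothelial markers in LPS cells, had an interval of 0.771 to 0.994. Fibroblast markers were 1.07 and 1.03 for *Penk* and 1.05 in both libraries for *Pvalb*. The pericyte genes were 1.35 (1.15 to 1.58) in control and 1.14 (0.954 to 1.37) in LPS cells with *Penk*. In cells with *Pvalb* they were 1.15 (0.972 to 1.36) in control and 1.18 (0.990 to 1.41) in LPS cells. Interferon genes were 0.941 in control and 1.10 (1.02 to 1.18) in LPS cells with *Penk*, and 0.996 and 1.14 (1.06 to 1.23) in those with *Pvalb*. The Schwann or neuronal genes were 0.812 (0.703 to 0.935) and 0.802 (0.617 to 1.03) in cells with *Pvalb*, and 0.878 and 0.991 in those with *Penk*.

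Over the 22 combinations of cluster and library, the genes with the level most like *Penk* among 11303 included *Sod3*, which encodes extracellular superoxide dismutase (Pearson's r of 0.888 on log2(CPM + 1)), *Aard* (0.872), the collagen gene *Col11a1* (0.864) and *Gpm6b* (0.852). For *Pvalb* they were *Dcn* (0.861), *Gfpt2* (0.857), *Fibin* (0.837), *Sphk1* (0.819) and the zinc transporter gene *Slc39a6* (0.806). *Penk* and *Pvalb* had an r of 0.698 with each other. These 22 points share libraries, depth and free RNA, and the ranking was unstable. Without cluster 10, the genes most like *Penk* were *Dcn*, *Fibin*, *Lum*, *Mmp2* and *Igsf10*, 0 of the first 5, and 3 of 5 stayed for *Pvalb*.

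Of the 22 opioid genes listed, 21 were in the gene table and 11, *Penk* included, had at least 50 UMIs in cluster 0. Of these 1 was past 2-fold higher with LPS and 0 were lower, against 3.43% and 9.01% of all genes, and the median log2 ratio of the list was -0.01 against -0.13. The other ligand precursors were scarce. *Pomc*, the precursor of beta-endorphin, was at 7.76 and 7.71 CPM, *Pnoc*, the precursor of nociceptin, was at 0.221 and 0.515 CPM with a ratio of 2.33 (1.32 to 4.23) from 20 and 38 UMIs, and *Pdyn*, the precursor of the dynorphins, had 5 and 0 UMIs.

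Transcripts of the classical opioid receptors were nearly absent from all cells. *Oprm1* (mu) and *Oprk1* (kappa) had 0 UMIs in either library, while *Oprd1* (delta) had 12 in the control and 1 in the LPS library and *Oprl1* (nociceptin) 4 and 2. *Ogfr*, an unrelated receptor that binds Met-enkephalin, was at 64.1 and 83.8 CPM in cluster 0, a ratio of 1.31 (1.26 to 1.35), and at 92.5 and 201 CPM in cluster 7. Among the enzymes that process precursors, *Pcsk1* and *Pcsk2*, the convertases of neuroendocrine cells, had 2 and 12 UMIs in control and 1 and 36 in LPS cells of cluster 0. Of the 21 LPS UMIs of *Pcsk1*, 19 lay in the macrophages. *Furin* was at 55.8 and 44.7 CPM, carboxypeptidase E (*Cpe*) at 26.6 and 23.0 CPM and cathepsin L (*Ctsl*), which can also process proenkephalin, at 528 and 480.3 CPM. Of the peptidases that degrade enkephalins, *Mme* (neprilysin) had only 86 and 79 UMIs, while *Dpp3* was at 40.3 and 35.4 CPM and *Anpep* (aminopeptidase N) at 27.8 and 14.7 CPM, a ratio of 0.527 (0.491 to 0.567). *Enpep*, a related aminopeptidase, was at 12.4 and 20.1 CPM, a ratio of 1.61 (1.49 to 1.74). The fibroblasts thus held the precursor with little *Pcsk1* and *Pcsk2* and almost no transcripts of its classical receptors at this depth.

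Of the 19 calcium-binding genes compared, *Pvalb* included, 18 were in the gene table and 15 had at least 50 UMIs in cluster 0. None was past 2-fold higher and 1 was past 2-fold lower, against 3.43% and 9.01% of all genes. The median log2 ratio was -0.10, against -0.13 over all genes. The lower one was *S100b*, at 9.23 and 1.74 CPM, a ratio of 0.188 (0.155 to 0.227); it is also a Schwann cell gene, and the Schwann or neuronal list as a whole, *S100b* included, was at 54.4 and 15.3 CPM in cluster 0, whose part in that value was not tested. The other buffers of the *Pvalb* kind were hardly seen, with 0 UMIs of *Calb1*, 6 and 1 of *Calb2* and 6 and 1 of *S100g*. *S100a11* had a ratio of 1.28 (1.26 to 1.29) and *S100a4* one of 0.796 (0.789 to 0.803). *Pvalb*, selected on measured values of these data, had the highest ratio of the 15 genes, 1.42.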

How the data were processed

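The deposited values were raw UMI counts per gene and cell, made by the authors without normalization, for 2 libraries, with a table of the authors' clusters and cell types. Cell Ranger 2.2.0 and Seurat 2.3.4 are named in the submitters' processing notes, and by the study's methods both libraries were joined by canonical correlation analysis and clustered at a resolution of 0.5; the genome build is not given in the sources used here. Members and lists were chosen with earlier results of these data known. All cells with a cluster were used, no filter was added and no doublet caller was run. Subsets without cells holding marker UMIs of other cell types were alternatives. The one without *Ptprc* or *Tnnt2* kept 31.5% of control and 44.9% of LPS cells of cluster 0, and whether the cells left out were doublets was not tested. *Pecam1* is not in the gene list used, so the subset planned without *Pecam1*, *Ptprc* or *Tnnt2* was taken without *Ptprc* or *Tnnt2*, and one without *Cdh5*, *Ptprc* or *Tnnt2* was added after the data were seen. *Pcsk1n* and *Ocm* were not in the list either. Some genes of the lists are not reported here, and the Schwann and calcium-binding lists were summed and counted without them.

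Sums and intervals were computed with scipy 1.17.1, numpy 2.4.6 and pandas 2.3.3 under Python 3.11.15, and figures were drawn with matplotlib 3.10.9. Intervals at 95% were exact Poisson (levels), exact conditional (ratios of UMIs), Clopper-Pearson (shares) and Wilson-based (differences of shares). Cells were thinned to 3000 UMIs without replacement with seed 1. List genes were called past a 2-fold difference in cluster 0 among genes with at least 50 UMIs over both libraries. Named companions were the 5 genes with the highest correlation among those with at least 200 UMIs and, within cluster 0, the 10 whose log2 ratio, with 0.5 UMI added to each sum, was largest in absolute value among genes with at least 50 thinned UMIs; the 1.5-fold limit and the list with at least 500 were chosen after seeing the data. Control cells held 3682 to 70604 UMIs each and LPS cells 2821 to 46594. The procedure was tested on simulated data: of 200 genes among 12247 given a 2-fold change between the libraries in cluster 0, 88.0% were among the 200 with the largest measured change, and the true ratio lay inside 95.5% of intervals. The simulated counts were independent Poisson counts, the model behind the intervals, with no further spread between cells or libraries. They therefore check the computation only and do not show that the intervals hold for the real counts. No test was made, since cells of 1 library are not replicates.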

Additional observations from a re-analysis of the deposited data

Results flagged for a closer look

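In cluster 2, which the authors left without a cell type and which held the pericyte genes, the LPS to control ratio of *Penk* was 0.894 (0.810 to 0.986), with an interval below 1, whereas the interval lay above 1 in 7 of the 11 clusters. With each cell thinned to 3000 UMIs it was 0.886 (0.754 to 1.04). In the macrophages of cluster 6 the ratio of *Pvalb* was 0.692 (0.537 to 0.889), again with 7 of 11 clusters above 1. There 27 of the 181 control UMIs came from 1 cell, and the ratio was 0.749 (0.572 to 0.977) without the richest cell of each library and 0.943 (0.583 to 1.52) after thinning, when its interval included 1. Both stand out because, in pooled UMIs, 1 cluster went the opposite way, and the difference between the clusters was not tested, since there is 1 library per condition. The intervals cover counting error only and are too narrow for the spread between cells. In control and LPS cells the variance of the thinned counts was 3.71 and 3.47 times the mean for *Penk* in cluster 2. For *Pvalb* in cluster 6 it was 1.66 and 1.20 times the mean.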

How the results depend on the processing

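No paired analysis was possible because there was only 1 library of each kind. Of 84 measured values under alternatives, 55 stayed inside the counting interval of the value as reported, 26 lay outside it and 3 reversed, and 14 overlaps of gene lists all fell by over 1.5 times; the cause was not tested. Leaving out the cell richest in each gene, added after seeing the data, moved none of the LPS to control ratios of clusters 0, 1 and 7 outside their intervals. The log2 LPS to control ratio of *Penk* in cluster 1, 0.31, became -0.25 without cells holding *Ptprc* or *Tnnt2*, -0.28 without *Cdh5*, *Ptprc* or *Tnnt2* (added after seeing the data), -0.05 without *Top2a* or *Mki67* and 0.14 after thinning. In cluster 7 *Penk*, 0.79, became 0.23 and 0.21 under the first 2 subsets. In cluster 0 *Penk*, 0.13, was 0.26 with the median gene set to equal levels, 0.18 and 0.23 in the same subsets, 0.16 with the 3 clusters pooled and 0.18 after thinning. *Pvalb* there, 0.51, was 0.64, 0.47 and 0.45 in that order and 0.46 without *Top2a* or *Mki67*, and in cluster 1, 0.59, it was 1.51 without *Top2a* or *Mki67* (17 control and 114 LPS UMIs) and 0.48 after thinning. Without thinning, the differences in share of cells were -8.98 percentage points for *Penk* and 1.33 for *Pvalb*. Relative to cluster 0, cluster 1 moved from -0.92 to -0.99 for *Penk* with LPS, from -1.70 to -1.78 and -1.81 for control *Pvalb*, and from -1.62 to -1.76 and -1.71 for LPS *Pvalb*, with the mean of the cells' own CPM and without the 8% of cells with most UMIs. Cells with both genes over the independent number went from 1.27 and 1.21 to 1.08 and 1.08 without thinning and to 1.42 and 1.36 at 1500 UMIs. Of the 5 genes most like *Penk*, 1, 1, 1 and 0 stayed by Spearman correlation, in the control library, in the LPS library and without cluster 10, and of those most like *Pvalb* 2, 1, 1 and 3. Of the 10 companions with at least 50 UMIs, 3 (*Penk*) and 0 (*Pvalb*) stayed at 5000 UMIs, 0 and 1 when chosen in LPS cells, and 0 and 0 with at least 500 UMIs.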
